A study of Homo sapiens with 48 samples.

Results

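Nascent transcription was examined in MCF10A-1 cells that stably express SATB1 and were exposed to 4 µM benzo[a]pyrene for 3 days, relative to untreated SATB1 cells of the same line. Titles mark the untreated GRO-seq libraries as 0 hours, so the exposure and the days in culture cannot be told apart. The comparison is contrast 5 of the GRO-seq table that the authors deposited, read over all of its 14745 rows. It is taken to set 4 exposed against 4 untreated libraries, so that 8 of the 48 libraries of the series stand behind its fold changes. MCF10A-1 is a human breast epithelial line, grown here with fetal bovine serum in place of horse serum in every group. The wider design crossed the SATB1 construct or its empty vector with no exposure, 3 hours or 3 days of benzo[a]pyrene, with 4 libraries per group, in GRO-seq (24 libraries) and in RNA-seq. The labels say neither whether the SATB1 line is 1 clone or a pool, nor whether a group's libraries stem from separate cultures. P-values therefore reflect only how far libraries spread, and that spread may be technical. At the median over genes, the errors of the other contrasts were 0.983 to 0.997 times those of contrast 5, while single genes varied more. The errors are therefore read as pooled over more than these 8 libraries. Their 25 degrees of freedom were chosen to make a gene's errors most alike. The question behind the study is which genes of epithelial-to-mesenchymal transition (EMT) are switched on by the hydrocarbon or by SATB1.

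GRO-seq lets engaged RNA polymerases extend their transcripts in isolated nuclei and sequences the labelled RNA, so it reads ongoing transcription rather than stored mRNA. Benzo[a]pyrene is a combustion product that binds the aryl hydrocarbon receptor (AHR). The receptor pairs with ARNT, binds DNA and induces CYP1 enzymes, which turn benzo[a]pyrene into a diol epoxide that forms bulky adducts on DNA. Such adducts block polymerases and activate p53, whose targets halt the cell cycle and aid repair. SATB1 is a nuclear protein that binds AT-rich DNA and organises chromatin loops.

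The headers number the contrasts without naming groups, so the identity of contrast 5 was checked in the tables. In the authors' deposited table for RNA-seq, SATB1 mRNA had a fold change of 112 in contrast 1, against 1.05, 0.836, 0.953 and 1.49 in contrasts 2 to 5, so contrast 1 is read as SATB1 over vector. The SATB1 row of the GRO-seq table was not analysed here. The nascent CYP1A1 fold change in the authors' deposited table was 163 in contrast 2, 3.99 in contrast 3, 48.0 in contrast 4 and 2.90 in contrast 5, so contrasts 2 and 4 are read as the short exposure and contrasts 3 and 5 as the long one. Standard errors implied by the fold changes and p-values were 0.983 to 0.997 times those of contrast 5 in the other contrasts (medians over 10484 genes), where a difference of differences would have larger ones. Over 4988 genes with a p-value above 0.1 in every contrast, fold changes of contrast 5 correlated (Pearson) at 0.42 with contrast 4, -0.28 with contrast 1, 0.18 with contrast 2 and 0.11 with contrast 3, a description of which contrasts share libraries and no result on genes. Below, contrast 5 is read as 3 days in SATB1 cells, contrast 4 as 3 hours in SATB1 cells and contrast 3 as 3 days in vector cells, each over its own untreated cells. Contrasts 5 and 4 then share the untreated SATB1 libraries, while contrasts 5 and 3 share none. The labels disagree on the short exposure, which is 3 hours in titles and sample characteristics and 72 hours, the same length as 3 days, in the treatment protocol. The titles were followed, and every statement on the length of exposure rests on that reading.

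The table holds no levels, so fewer cells of a type and less transcription per cell cannot be told apart, and the cell type cannot be checked by the level of its markers. All 14 basal epithelial markers have a row, as do 8 of 9 luminal, 8 of 9 fibroblast, 5 of 9 immune and 4 of 7 endothelial markers. The depth of the libraries is unknown. No source says if reads were counted by strand, so genes that overlap another gene are uncertain.

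At an adjusted p under 0.05 (the authors' limma p-values, Benjamini-Hochberg adjusted over all rows), 35 genes were called, which is 0.237% of all rows. Of these, 17 rose (0.115%) and 18 fell (0.122%). Their log2 fold changes ranged in size from 0.65 to 4.07, with a median fold size of 2.55. An unadjusted p under 0.05 was reached by 1702 rows, where 737 would be expected by chance, with 843 above 1 (5.72%) and 859 below 1 (5.83%). Contrast 3 had 2676 called genes (18.1%) and contrast 4 had 458 (3.11%), with median implied standard errors of 0.324 in contrast 5, 0.317 in contrast 4 and 0.323 in contrast 3 on the log2 scale. The calls lean towards well measured genes, since 27 of the 35 have a standard error at or below the median. All 35 calls are lost at an adjusted p under 0.01 or with the Benjamini-Yekutieli adjustment. Just outside the threshold, the next 6 genes by p-value were NRCAM, TPX2, PNRC1, PTHLH, TSPAN5 and PLEK2, at adjusted p-values of 0.0528 to 0.0569.

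**Figure D1:**
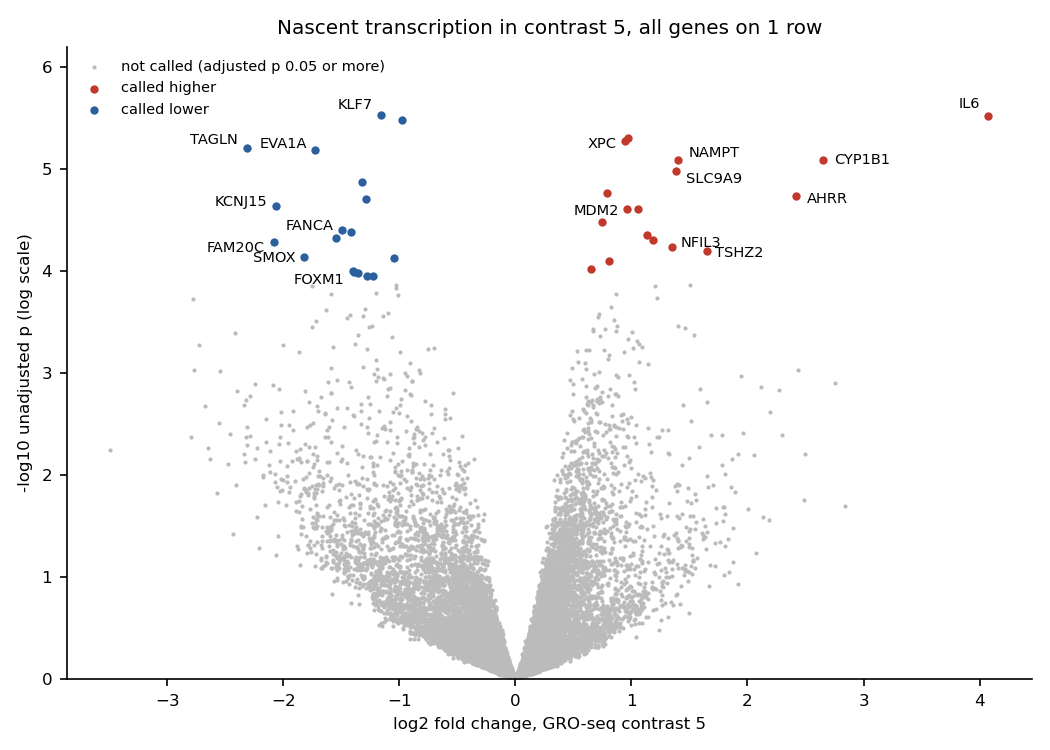
Each point is 1 gene of the GRO-seq table, with its log2 fold change in contrast 5 (horizontal) and the negative log10 of its unadjusted p (vertical). The 17 genes called higher and 18 called lower are coloured, and IL6 lies farthest to the right at 4.07.

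Genes of both known arms of the benzo[a]pyrene response, AHR targets and p53 targets, were among those that rose. Among AHR targets, CYP1B1, a cytochrome P450 that oxidises benzo[a]pyrene, rose by 2.65 ± 0.47 on the log2 scale (± is the implied standard error throughout; adjusted p = 0.0132, limma with Benjamini-Hochberg adjustment). AHRR, the repressor that the receptor induces and that competes with it for ARNT, rose by 2.42 ± 0.46 (limma, adjusted p = 0.0205). For CYP1B1 the authors' deposited table gives fold changes of 6.29 in contrast 5, 7.93 in contrast 4 and 5.95 in contrast 3, and a higher one of 20.7 in contrast 2, the short exposure of vector cells. AHRR had fold changes of 5.36 in contrast 5, 18.9 in contrast 4 and 5.82 in contrast 3 of the authors' deposited table. The difference of AHRR between contrasts 5 and 4 was not called (limma p-values, adjusted p = 0.519). Tests between contrasts 5 and 4 took their standard errors as independent, although the untreated SATB1 libraries are shared. Such a test calls too few genes, so an uncalled difference does not show that the values are alike.

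CYP1A1, the enzyme most widely used as a readout of the receptor, was not called, at 1.53 ± 0.81 on the log2 scale (limma, adjusted p = 0.487). Its standard error is above the median of 0.324 over all rows. Its difference from contrast 4 of -4.05 ± 1.09 was not called either (adjusted p = 0.191 from the limma p-values), by the test that calls too few genes. ALDH3A1, an aldehyde dehydrogenase induced through the receptor, had a log2 fold change of 1.46 ± 0.35 and missed the threshold (limma, adjusted p = 0.0827). TIPARP, a mono-ADP-ribosyltransferase that dampens the receptor, had 0.50 ± 0.31, and NQO1, a quinone reductase, had -0.19 ± 0.37, both uncalled. Over the 13 measured AHR-induced genes, 2 were called higher and the median log2 was 0.61, against -0.002 over all rows. At an unadjusted p under 0.05, 5 had a fold change above 1 and 1 below 1 (5.72% and 5.83% over all rows). The 7 components of the pathway (the receptor, its partners and chaperones) had none at that p and a median of 0.03. Of 11 further genes of benzo[a]pyrene metabolism and efflux, 2 lay above 1 (the glutathione transferases GSTA4 and GSTP1) and 2 below 1 (the efflux pumps ABCG2 and ABCC1) at an unadjusted p under 0.05.

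The AHR complex recognises the core GCGTG, and the AHRR promoter is shown because it holds this core in a gene that rose in contrasts 5, 4 and 3. The window runs from 250 bases before to 50 bases after the RefSeq start (build GRCh38.p14, chr5:321464-321763, forward strand), is written 5′ to 3′ and has the core in capitals, beginning 30 bases before the start.
AHRR promoter: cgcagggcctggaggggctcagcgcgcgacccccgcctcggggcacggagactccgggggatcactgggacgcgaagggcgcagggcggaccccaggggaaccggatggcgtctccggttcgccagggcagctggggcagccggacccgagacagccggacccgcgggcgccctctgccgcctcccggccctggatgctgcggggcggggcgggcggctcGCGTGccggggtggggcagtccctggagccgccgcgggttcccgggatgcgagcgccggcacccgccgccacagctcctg
Counted on both strands, whether or not it overlapped another motif, the core occurs in 48.6% of the 11494 promoters of tested genes, in 10 of the 15 promoters found for genes called higher and in 5 of the 14 for genes called lower. A core in so many promoters is a description of these windows and marks no binding site. The CYP1B1 promoter was not used here.

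Among p53 targets, XPC and MDM2 were called. XPC, which recognises bulky lesions in nucleotide excision repair, rose by 0.95 ± 0.16 on the log2 scale (limma, adjusted p = 0.0132). MDM2, the ubiquitin ligase that degrades p53, rose by 0.97 ± 0.19 (limma, adjusted p = 0.0212). In the authors' deposited table, XPC had fold changes of 1.93 in contrast 5, 1.71 in contrast 4 and 2.39 in contrast 3, and MDM2 had 1.95 in contrast 5, 1.74 in contrast 4 and 2.56 in contrast 3. Neither gene's differences from contrasts 4 and 3 were called, and the test against contrast 4 calls too few genes. JMY, a p300-binding cofactor of p53 that also nucleates actin, rose by 0.97 ± 0.17 (limma, adjusted p = 0.0132).

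Across the list of 30 p53-activated genes, 28 had a fold change above 1. Of these, 17 reached an unadjusted p under 0.05, with none below 1 at that p (5.72% above 1 and 5.83% below 1 over all rows). Their median log2 was 0.61 in contrast 5, 0.43 in contrast 4 and 1.05 in contrast 3, and their values in contrast 5 ran from -0.14 to 1.65. EDA2R, a death-domain receptor, had 0.81 ± 0.21 and CDKN1A, the cyclin-dependent kinase inhibitor p21, had 1.03 ± 0.29, and neither was called (limma, adjusted p = 0.104 and 0.143). None of the 30 differed from contrast 3 at an adjusted p under 0.05. The 3 p53 family genes themselves had none at an unadjusted p under 0.05.

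Among called genes, the largest change in contrast 5 was in IL6, the cytokine that signals through gp130 and STAT3, which rose by 4.07 ± 0.68 on the log2 scale (limma, adjusted p = 0.0132). In the authors' deposited table its fold change was 16.8 in contrast 5, 1.55 in contrast 4 and 0.951 in contrast 3, the highest value standing in contrast 5. Its difference from contrast 4 was not called (adjusted p = 0.326 from the limma p-values), by a test that calls too few genes when untreated libraries are shared. The difference between contrasts 5 and 3 was 4.15 ± 1.07 on the log2 scale and did not pass adjustment over all genes (adjusted p = 0.0762 from the limma p-values). NAMPT, the rate-limiting enzyme of NAD salvage that is also secreted as a cytokine, rose by 1.40 ± 0.25 (limma, adjusted p = 0.0132). NAMPT had fold changes of 2.65 in contrast 5, 1.62 in contrast 4 and 1.07 in contrast 3 of the authors' deposited table, and its difference from contrast 3 was not called (adjusted p = 0.0992 from the limma p-values).

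NF-κB proteins bind the κB consensus, and the IL6 promoter is shown because it carries such a site in the gene with the largest fold change among called genes. It lies at chr7:22726950-22727249 on the forward strand of GRCh38.p14 in RefSeq. The site is in capitals and begins 73 bases before the start.
IL6 promoter: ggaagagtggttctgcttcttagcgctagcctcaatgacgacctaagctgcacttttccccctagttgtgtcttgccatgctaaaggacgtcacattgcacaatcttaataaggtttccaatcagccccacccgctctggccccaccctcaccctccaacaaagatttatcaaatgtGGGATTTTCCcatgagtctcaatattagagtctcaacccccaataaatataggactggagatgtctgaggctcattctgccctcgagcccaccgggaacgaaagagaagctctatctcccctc
Searched on both strands and in any overlap with other motifs, the κB consensus occurs in 12.9% of the 11494 promoters, in 3 of the 15 of genes called higher and in 1 of the 14 of genes called lower.

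Of 23 measured cytokine, chemokine and NF-κB feedback genes, IL6 was the only one called. At an unadjusted p under 0.05, 7 had a fold change above 1 and 1 below 1 (5.72% and 5.83% over all rows). The list's median log2 was 0.81 in contrast 5, -0.97 in contrast 4 and 0.32 in contrast 3. IL1A had 0.86 ± 0.24 and CXCL2, a neutrophil attractant, had 1.02 ± 0.32, both uncalled. For 2 members the difference from contrast 4 was itself called. IL24, a cytokine of the IL-10 family, differed by 5.04 ± 0.95 on the log2 scale (adjusted p = 0.0396 from the limma p-values), with fold changes of 2.26 in contrast 5 and 0.0688 in contrast 4 of the authors' deposited table. TNFAIP3, which encodes the NF-κB inhibitor A20, differed by 2.17 ± 0.38 (adjusted p = 0.0213 from the limma p-values), with fold changes of 1.84 in contrast 5 and 0.409 in contrast 4 of the authors' deposited table. The untreated SATB1 libraries serve both contrasts, so these tests compare 3 days with 3 hours of exposure. In contrast 3 of the authors' deposited table, TNFAIP3 at 1.97, CXCL2 at 2.41 and IL1A at 2.05 were called higher, while IL24 at 1.37 was uncalled. Of the list's members, 0 differed between contrasts 5 and 3 at an adjusted p under 0.05.

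Of the other genes that rose, several encode transcription factors. NFIL3, a bZIP repressor, rose by 1.35 ± 0.28, ETS2 by 1.19 ± 0.24, KLF5, a Krüppel-like factor of epithelia, by 0.74 ± 0.15, and TSHZ2, a zinc-finger homeobox protein, by 1.65 ± 0.34. SLC9A9, an endosomal sodium-proton exchanger, rose by 1.38 ± 0.25, SDR16C5, an epidermal retinol dehydrogenase, by 1.14 ± 0.23, and ANKS1B by 1.06 ± 0.20. ARGLU1, a splicing modulator, rose by 0.81 ± 0.17, NTPCR by 0.79 ± 0.15 and RALGAPA2, a GTPase-activating protein of Ral, by 0.65 ± 0.14, the smallest called size. For these 10 genes the limma adjusted p-values ranged from 0.0153 (SLC9A9) to 0.0459 (RALGAPA2). SLC9A9 had fold changes of 2.61 in contrast 5, 4.57 in contrast 4 and 6.73 in contrast 3 of the authors' deposited table, and ANKS1B had 2.08, 3.99 and 1.28 in the same order. No difference from contrast 3 was called among them.

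**Figure D2:**
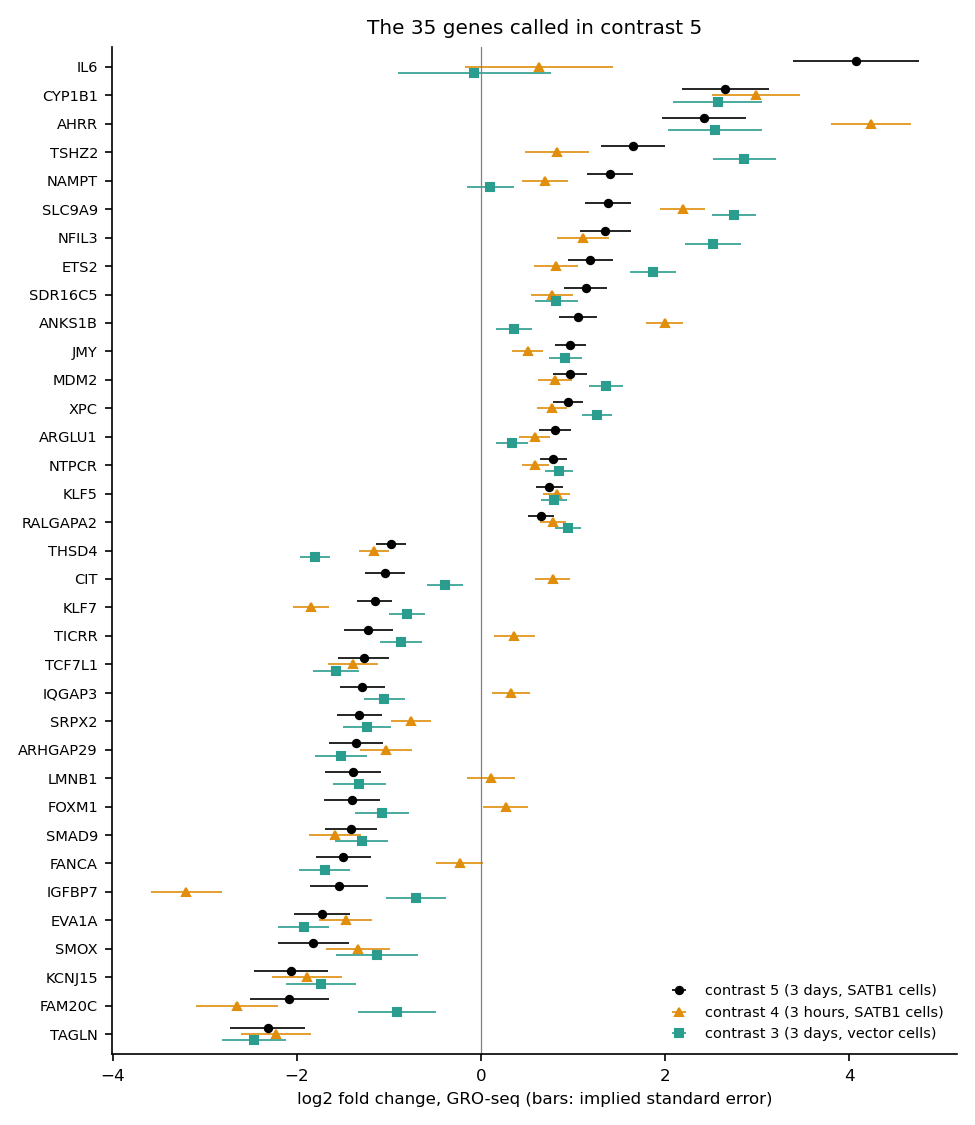
Log2 fold changes (points) and implied standard errors (bars) of the 35 called genes in GRO-seq contrasts 5, 4 and 3, ordered by contrast 5. IL6 lies at 4.07 in contrast 5 and at 0.63 in contrast 4, CIT and IQGAP3 lie below 0 in contrasts 5 and 3 and above 0 in contrast 4, and TAGLN lies near -2.3 in contrast 5.

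The 18 genes that fell include several that are known from dividing cells, grouped here after the calls were seen. FOXM1, the transcription factor that drives late cell cycle genes, fell by 1.40 ± 0.30 on the log2 scale (limma, adjusted p = 0.0459). CIT, the citron kinase of the cytokinetic ring, fell by 1.04 ± 0.22 (limma, adjusted p = 0.0394), and IQGAP3, a scaffold of proliferating cells, fell by 1.29 ± 0.25 (limma, adjusted p = 0.0205). TICRR, which helps to start replication origins, fell by 1.22 ± 0.27, and LMNB1, a protein of the nuclear lamina, by 1.39 ± 0.30. FANCA, a Fanconi anaemia protein of crosslink repair, fell to a fold change of 0.355 in the authors' deposited table. For TICRR, LMNB1 and FANCA the limma adjusted p-values were 0.0473, 0.0459 and 0.0303.

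Their fold changes at the short exposure in SATB1 cells (contrast 4) stood closer to 1 or above it. At the short exposure of vector cells (contrast 2), FANCA at 0.330, TICRR at 0.548 and LMNB1 at 0.536 were called lower. IQGAP3 at 0.696, FOXM1 at 0.676 and CIT at 1.02 were uncalled in contrast 2 of the authors' deposited table. In the authors' deposited table, CIT had 0.486 in contrast 5, 1.72 in contrast 4 and 0.762 in contrast 3, and IQGAP3 had 0.409 in contrast 5, 1.25 in contrast 4 and 0.483 in contrast 3. The difference from contrast 4 was called for CIT (-1.82 ± 0.29 on the log2 scale, adjusted p = 0.0113 from the limma p-values) and for IQGAP3 (-1.61 ± 0.32, adjusted p = 0.0396). FOXM1 had fold changes of 0.378 in contrast 5, 1.21 in contrast 4 and 0.475 in contrast 3 of the authors' deposited table. Its difference from contrast 4 was not called (adjusted p = 0.0879 from the limma p-values), by a test that calls too few genes when untreated libraries are shared. None of the 6 genes named differed from contrast 3 at an adjusted p under 0.05.

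Late cell cycle promoters can carry the cell cycle homology region, TTTGAA, which the DREAM and MuvB complexes read. The CIT and IQGAP3 promoters are shown because these 2 genes are the called ones whose fold change also differed from contrast 4. Both genes lie on the reverse strand of GRCh38.p14 in RefSeq (CIT at chr12:119877271-119877570, IQGAP3 at chr1:156572516-156572815), and the windows are written along each gene, 5′ to 3′. Capitals mark the motif, which in each case stands on the opposite strand and so reads TTCAAA.
CIT promoter: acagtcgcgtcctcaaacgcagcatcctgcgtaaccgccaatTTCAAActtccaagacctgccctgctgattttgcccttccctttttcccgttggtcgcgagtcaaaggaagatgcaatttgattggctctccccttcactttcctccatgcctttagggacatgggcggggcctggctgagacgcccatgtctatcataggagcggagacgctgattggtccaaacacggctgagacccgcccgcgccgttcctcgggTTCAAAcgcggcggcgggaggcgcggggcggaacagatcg
IQGAP3 promoter: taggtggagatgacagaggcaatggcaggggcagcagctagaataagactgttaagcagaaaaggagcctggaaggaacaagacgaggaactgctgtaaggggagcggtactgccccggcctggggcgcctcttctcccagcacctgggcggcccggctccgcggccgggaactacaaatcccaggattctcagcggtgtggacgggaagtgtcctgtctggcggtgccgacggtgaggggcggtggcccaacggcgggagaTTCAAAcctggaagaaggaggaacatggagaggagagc
The sites begin 208 bases before and 10 bases after the start in CIT, and 12 bases after it in IQGAP3. On both strands and in any overlap with other motifs, TTTGAA occurs in 10.5% of all 11494 promoters, in 1 of 15 of genes called higher and in 2 of 14 of genes called lower, CIT and IQGAP3. The CCAAT box, which NF-Y binds, was counted in the same way in 36.0% of all promoters, in 3 of the 15 and in 7 of the 14. The FOXM1 and TAGLN promoters were not used here and are not among the 14. Such counts are a description of these windows and mark no binding site.

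All 18 members of the mitosis and spindle list had a fold change below 1 in contrast 5, none of them called. Of the 18, 12 reached an unadjusted p under 0.05, where 5.83% of all rows lay below 1. Their median log2 was -0.80 in contrast 5, 0.60 in contrast 4 and -0.32 in contrast 3. The microtubule factor TPX2 had -1.02 ± 0.23, the kinase PLK1 had -0.95 ± 0.26 and the motor KIF11 had -0.89 ± 0.24 on the log2 scale. BUB1B, a spindle checkpoint kinase, had -1.29 ± 0.30 and differed from contrast 4 by -2.01 ± 0.39 (adjusted p = 0.0396 from the limma p-values). KIFC1, a minus-end motor outside the list, differed from contrast 4 by -2.23 ± 0.44 (adjusted p = 0.0396). With the standard error of 2 contrasts that have a group in common, an alternative added after seeing the data, 14 of the 18 mitosis genes lay below contrast 4 at an adjusted p under 0.05, where 1.34% of all rows did.

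DNA replication genes had a different order of the contrasts. All 21 lay below 1 in contrast 5 and 12 reached an unadjusted p under 0.05 (5.83% of all rows below 1), again with none called. Their median log2 was -0.70 in contrast 5, -0.02 in contrast 4 and -1.29 in contrast 3, and 1 of the 21 lay below contrast 4 with the common-group standard error. CDC6, a licensing factor, had -1.31 ± 0.35, CDC45, a helicase subunit, had -1.20 ± 0.33, E2F1 had -1.64 ± 0.49 and MCM10 had -1.62 ± 0.51. Replication genes were measured with a median standard error of 0.36, against 0.32 for mitosis genes, and among precisely measured members (standard error at or below the median) 1 of 7 replication genes and 7 of 10 mitosis genes lay below 1 at an unadjusted p under 0.05. Of 20 DNA repair genes, FANCA was called, 3 lay below 1 and 1 above 1 at an unadjusted p under 0.05, and BRCA1 had -0.89 ± 0.24.

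**Figure D3:**
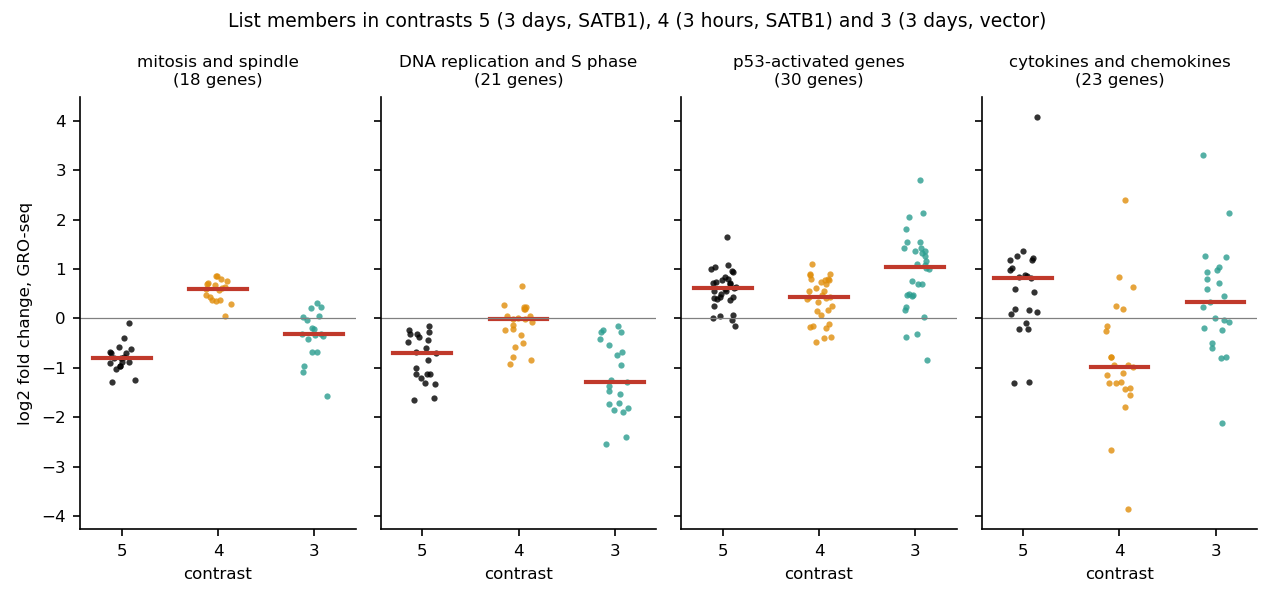
Each point is 1 gene of a list, with its log2 fold change in GRO-seq contrasts 5, 4 and 3, and red lines are medians. The median of the 18 mitosis genes is -0.80 in contrast 5, 0.60 in contrast 4 and -0.32 in contrast 3, while that of the 30 p53-activated genes is above 0 in each.

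The other genes that fell have varied known roles. TAGLN, the actin-binding protein transgelin and a target of SRF and TGF-β, fell by 2.32 ± 0.41 on the log2 scale, the largest decrease among called genes (limma, adjusted p = 0.0132). In the authors' deposited table its fold change was 0.201 in contrast 5, 0.214 in contrast 4 and 0.181 in contrast 3. EVA1A, an autophagy regulator, fell by 1.72 ± 0.30 and KLF7, a Krüppel-like factor, by 1.16 ± 0.19, both with a limma adjusted p of 0.0132. KCNJ15, a potassium channel, fell by 2.06 ± 0.40, FAM20C, a secretory pathway kinase, by 2.08 ± 0.43, and SMOX, the spermine oxidase, by 1.82 ± 0.38.

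IGFBP7, a secreted IGF-binding protein, fell by 1.54 ± 0.31, SRPX2, a secreted protein of cell migration, by 1.32 ± 0.24, and THSD4, which binds microfibrils, by 0.98 ± 0.17. SMAD9, a transducer of BMP signals, fell by 1.41 ± 0.28, TCF7L1, a repressor in the WNT pathway, by 1.28 ± 0.28, and ARHGAP29, a RhoA GTPase-activating protein, by 1.36 ± 0.29. The limma adjusted p-values of KCNJ15, FAM20C, SMOX and these 6 genes ranged from 0.0132 (THSD4) to 0.0473 (TCF7L1). IGFBP7 had fold changes of 0.344 in contrast 5, 0.109 in contrast 4 and 0.613 in contrast 3 of the authors' deposited table, and THSD4 had 0.507, 0.446 and 0.286 in the same order. No difference was called between contrasts for any of these 12 genes, and the test against contrast 4 calls too few genes.

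Of the 35 genes, 27 were also called in contrast 3, which is 77.1% of the contrast 5 calls and 1.01% of the contrast 3 calls. Over all rows, 18.1% were called in contrast 3. In contrast 4, which shares the untreated SATB1 libraries, 22 of the 35 were also called, against 3.11% of all rows. There, 5 of the 35 lay on the other side of 1. On the other side of 1 in contrast 3 lay 1 gene, IL6. The size of the log2 fold change was smaller in contrast 5 than in contrast 3 for 16 of the 35 and larger for the rest, and 0 of the 35 differed between these contrasts at an adjusted p under 0.05.

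Transcripts of EMT were the subject of the study. Of 17 EMT transcription factors measured, none was called and none reached an unadjusted p under 0.05, with a median log2 of 0.22 in contrast 5, 0.22 in contrast 4 and -0.15 in contrast 3. SNAI2 had 0.28 ± 0.43 and ZEB1 had 0.54 ± 0.29. CDH1, the epithelial cadherin, had -0.10 ± 0.40. Among 32 epithelial junction genes 1 lay above 1 and 0 below 1 at an unadjusted p under 0.05 (5.72% and 5.83% over all rows). VIM, the intermediate filament vimentin, had -0.31 ± 0.49. The 17 factors had a median standard error of 0.37 on the log2 scale. Values among them ran from -0.46 to 0.71, and none reached that p, so changes of such size could go uncalled. The lack of calls therefore does not show that these genes were unchanged. RNA-seq contrast 5 called 3 of the 17 factors measured there higher and 6 lower. SNAI2 mRNA was called higher, at a fold change of 1.14 in the authors' deposited table.

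Of 36 mesenchymal and matrix markers, TAGLN was called, and the median log2 was -0.24. At an unadjusted p under 0.05, 7 lay below 1 and 2 above 1 (5.83% and 5.72% over all rows). The basement membrane collagens COL4A2 and COL4A1 had -1.59 ± 0.36 and -1.43 ± 0.39 (limma, adjusted p = 0.0569 and 0.135). Of 16 actin and SRF target genes, 0 lay above 1 and 7 below 1 at that p, with a median of -0.36 in contrast 5, -0.56 in contrast 4 and -0.24 in contrast 3. MYL9, a myosin light chain, had -1.59 ± 0.45 and VCL, vinculin, had -0.54 ± 0.15. Of 24 TGF-β and activin pathway genes, 5 lay below 1 and 1 above 1 at that p, the decoy receptor BAMBI at 1.43 ± 0.50. Beside these, 2 of 8 fibroblast markers lay above 1 at an unadjusted p under 0.05 (DCN at 2.84 and COL1A1 at 1.25 on the log2 scale, chosen after their values were seen) and 6 of the 8 had a fold change above 1. The fibroblast list ranged from -1.44 to 2.84 on the log2 scale, with a median of 1.05 in contrast 5, 1.13 in contrast 4 and 0.09 in contrast 3. Its median standard error was 0.87, against 0.324 over all rows. RNA-seq contrast 5 called 0 of 9 fibroblast markers higher and 4 lower, with a median of -0.26. The part of this list in the matrix values was not tested.

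Stress and growth factor lists gave counts on a smaller scale. All rows had 5.72% above 1 and 5.83% below 1 at an unadjusted p under 0.05. Of 21 immediate early genes, which growth factors and stress switch on within minutes, 7 lay above 1 and 0 below 1 at an unadjusted p under 0.05, and FOS had 1.09 ± 0.28 and KLF4 had 1.12 ± 0.41, both uncalled. Their median log2 was 0.40 in contrast 5, -0.08 in contrast 4 and 1.27 in contrast 3. Of 17 ATF4 stress genes, which respond to amino acid shortage and the unfolded protein response, 5 lay above 1 and 0 below 1, with a median of 0.43 in contrast 5, -0.30 in contrast 4 and -0.18 in contrast 3. DDIT3, the pro-apoptotic factor CHOP, had 1.86 ± 0.70 and PSAT1, an enzyme of serine synthesis, had 0.87 ± 0.29. Of 15 endoplasmic reticulum chaperone genes, 3 lay above 1 and 0 below 1, and of 22 cholesterol and fatty acid synthesis genes, 0 lay above 1 and 4 below 1.

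Of 17 hypoxia genes, 1 lay above 1 (VEGFA) and 4 below 1 at an unadjusted p under 0.05, and of 14 chromatin architecture genes 0 lay above 1 and 3 below 1, LMNB1 among them. Of 20 NRF2 antioxidant genes, 2 lay above 1 and 1 below 1, and of 20 squamous differentiation genes 1 lay above 1 and 0 below 1, with a median log2 of 0.63 and a median standard error of 0.90 in the squamous list. Basal epithelial markers had 2 of 14 above 1 and a median of -0.004. Luminal markers had 2 of 8 above 1 and 2 of 8 below 1. None of the 5 immune or 4 endothelial markers reached that p. Interferon-stimulated genes had 2 of 19 above 1. Circadian clock genes had 1 of 18 above 1 and WNT pathway genes had 1 of 24. ERK feedback genes had 2 of 11 below 1 and EGF receptor family genes had 1 of 14 below 1. Integrin subunits, heat shock genes and Notch pathway genes had 0 in either direction. Beside 5.72% of all rows above 1 and 5.83% below 1, counts of 1 or 2 in such short lists are not read as results.

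**Figure D4:**
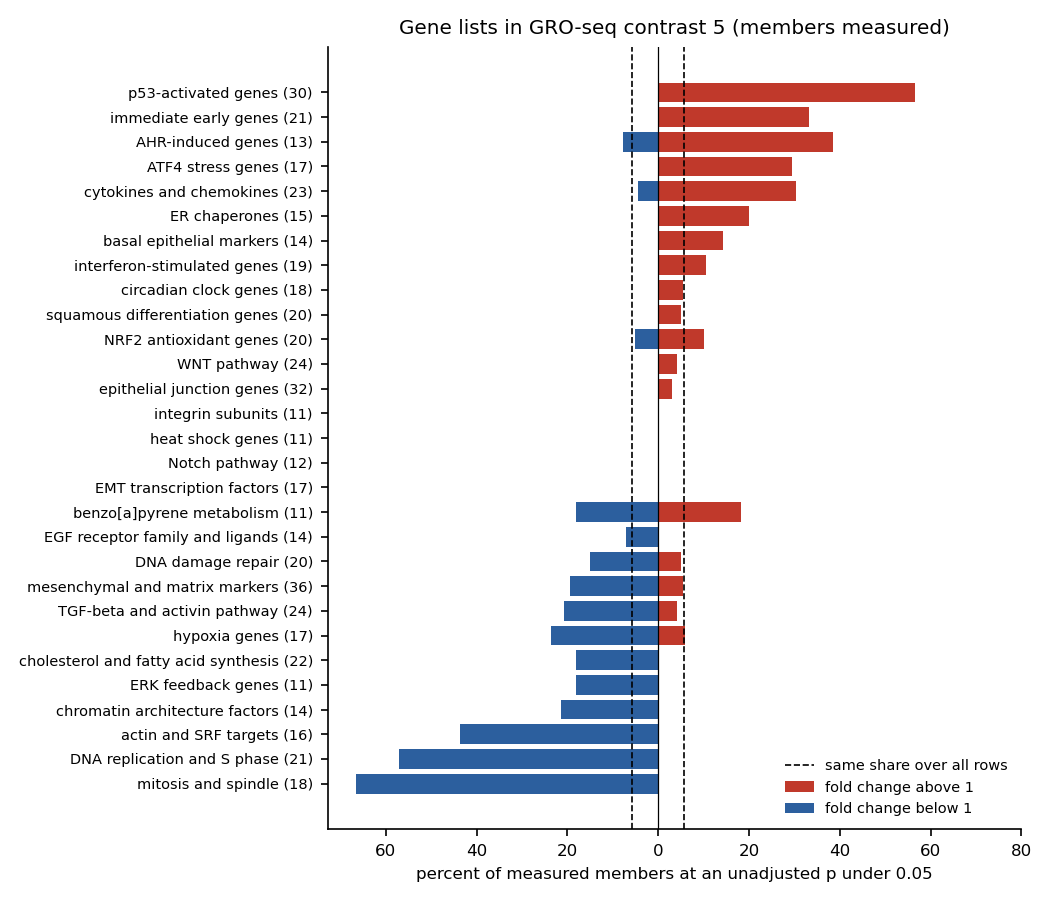
Bars give the percent of measured members (number in brackets) with a fold change above 1 (right, red) or below 1 (left, blue) at an unadjusted p under 0.05 in GRO-seq contrast 5, for lists with at least 10 measured members. Dashed lines mark the shares over all rows, 5.72% above 1 and 5.83% below 1.

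The 3 day exposure was compared between SATB1 and vector cells by the difference of contrasts 5 and 3. It sets the SATB1 line against the vector line, so the construct and other traits of the lines cannot be told apart. The difference of contrasts 5 and 3 was called for 75 genes (0.509% of all rows), with contrast 5 above contrast 3 for 35 and below it for 40. None of the 75 was called in contrast 5, while 74 were called in contrast 3, 39 of them higher and 35 lower there. The fold change was smaller in size in contrast 5 for 74 of the 75, with a median size of 0.26 in contrast 5 and 1.76 in contrast 3 on the log2 scale. A size that is large in contrast 3 is part of what the test selects on, so these medians are a description. The difference also holds the untreated groups of both lines, which contrast 1 (read as SATB1 over vector, untreated) sets against each other, so contrast 1 shares libraries with contrasts 5 and 3 and its values are given beside theirs.

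Genes called higher in contrast 3 and uncalled in contrast 5 include transcription factors of growth factor signalling. EGR3, an immediate early zinc-finger factor, had fold changes of 0.680 in contrast 5 and 46.1 in contrast 3 of the authors' deposited table, a difference of -6.08 ± 1.10 on the log2 scale (adjusted p = 0.00675 from the limma p-values). Its relative EGR1 had 1.26 in contrast 5 and 6.22 in contrast 3 of the authors' deposited table, a difference of -2.30 ± 0.38 (adjusted p = 0.00394). PPARGC1A, a coactivator of mitochondrial genes, had 1.05 in contrast 5 and 17.4 in contrast 3 of the authors' deposited table, a difference of -4.05 ± 0.72 (adjusted p = 0.00655). FBXO32, a muscle atrophy ubiquitin ligase, differed by -4.19 ± 0.71, GBP6, a guanylate-binding protein, by -6.24 ± 1.36, and CLEC2B, a lectin-like ligand, by -3.42 ± 0.68. Contrast 1 of the authors' deposited table had fold changes of 2.68 for EGR1 (limma, adjusted p = 0.0301), 7.66 for EGR3, 5.33 for FBXO32 and 4.28 for CLEC2B, of which EGR1 was called. PPARGC1A had 1.86 and GBP6 had 2.77 in contrast 1 of the authors' deposited table, both uncalled.

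Among genes that handle xenobiotic products, 1 of 13 AHR-induced genes and 2 of 20 NRF2 genes differed between contrasts 5 and 3. So did 0 of 11 genes of benzo[a]pyrene metabolism, against 0.509% of all rows. ALDH3A1 had fold changes of 2.75 in contrast 5 and 12.8 in contrast 3 of the authors' deposited table, a difference of -2.22 ± 0.48 (adjusted p = 0.0376 from the limma p-values). AKR1C1, an aldo-keto reductase induced by NRF2, had 0.635 in contrast 5 and 3.24 in contrast 3 of the authors' deposited table, a difference of -2.35 ± 0.34 (adjusted p = 0.00189). In contrast 1 of the authors' deposited table, ALDH3A1 had 1.33 and AKR1C1 had 1.64, both uncalled. CYP1B1 and AHRR are set against these, with differences of 0.08 and -0.12 on the log2 scale that were not called.

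Genes called lower in contrast 3 and uncalled in contrast 5 include THBS1, the matricellular protein thrombospondin, with fold changes of 0.974 in contrast 5 and 0.104 in contrast 3 of the authors' deposited table and a difference of 3.23 ± 0.61 (adjusted p = 0.0113 from the limma p-values). SLCO4A1 and SLCO2A1, organic anion and prostaglandin transporters, differed by 3.15 ± 0.69 and 3.02 ± 0.65. The neural adhesion genes CDH4 and DSCAM differed by 2.96 ± 0.61 and 2.36 ± 0.52, and HMGA2, a chromatin protein bound to AT-rich DNA, by 1.59 ± 0.30. CDH4 and HMGA2 also lay below 1 in contrast 5, at fold changes of 0.506 and 0.691 in the authors' deposited table (limma, unadjusted p = 0.025 and 0.0192), against 0.0652 and 0.230 in contrast 3. In contrast 1 of the authors' deposited table, SLCO2A1 had 0.233 and CDH4 had 0.260, both called (limma, adjusted p = 0.0256 and 0.0301), while THBS1 had 0.335, SLCO4A1 0.411, DSCAM 0.455 and HMGA2 0.763, all uncalled.

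The length of exposure in SATB1 cells was compared by the difference of contrasts 5 and 4, with their standard errors taken as independent. This calls too few genes, at 12 against 334 with the common-group standard error. That difference was called for 12 genes (0.0814% of all rows), with contrast 5 above contrast 4 for 7 and below it for 5. Beside IL24, TNFAIP3, CIT, IQGAP3, BUB1B and KIFC1, those named are XDH, the xanthine dehydrogenase, at 2.30 ± 0.34, BHLHE41, a circadian repressor, at 4.22 ± 0.82, HIVEP1 at 1.09 ± 0.21, the kinase LYN at 1.22 ± 0.24, and GAREM1, an adaptor of EGF signalling, at -1.15 ± 0.22. The 7 genes above contrast 4 were uncalled in contrast 5 and called lower in contrast 4.

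RNA-seq gives the mRNA pool beside nascent transcription. Its headers name no groups either, and its contrast 5 is taken by its number as the same comparison. Over 2467 genes with a p-value above 0.1 in every contrast, fold changes of RNA-seq contrast 5 correlated (Pearson) at 0.37 with contrast 4. The values were -0.23 with contrast 1, -0.01 with contrast 2 and 0.14 with contrast 3. RNA-seq contrast 5 called 1631 genes higher (10.5% of 15535 rows) and 1701 lower (10.9%), with a median implied standard error of 0.059 on the log2 scale. All 35 nascent calls have a row there. Of them 18 were also called in RNA-seq, which is 51.4% of the 35 and 0.56% of the 3216 RNA-seq calls among genes in both tables. In the same direction were 7, CYP1B1 and AHRR higher and SMOX, IGFBP7, FAM20C, SRPX2 and THSD4 lower. In the opposite direction were 11, of which 7 were higher in GRO-seq (NAMPT, NFIL3, ETS2, JMY, XPC, NTPCR and RALGAPA2) and 4 lower in GRO-seq (EVA1A, KLF7, FANCA and IQGAP3). The opposite mRNA changes were small, at most 0.36 in size on the log2 scale.

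CYP1B1 mRNA had a fold change of 2.06 and AHRR mRNA of 1.76 in the authors' deposited table for RNA-seq. CYP1A1, uncalled in nascent RNA, had an mRNA fold change of 4.79 there in the authors' deposited table (DESeq is named in the processing notes; adjusted p = 8.5e-10). IL6 mRNA, with a fold change of 1.16 in the authors' deposited table, was not called (adjusted p = 0.309, DESeq p-value). Over the 35 genes the median size of the mRNA log2 fold change was 0.12. Several named genes that differed between GRO-seq contrasts 5 and 3 were called in RNA-seq contrast 5. EGR3 at 1.71, EGR1 at 1.61, DSCAM at 1.47 and THBS1 at 1.42 were higher in the authors' deposited table. Lower were PPARGC1A at 0.216, CLEC2B at 0.531, FBXO32 at 0.662 and CDH4 at 0.837. ALDH3A1, AKR1C1, GBP6, SLCO2A1, SLCO4A1 and HMGA2 were uncalled. IL24 at 2.89 and NQO1 at 1.46 were also called higher. SATB1 mRNA itself rose 1.49-fold in contrast 5 of the authors' deposited table (adjusted p = 1.6e-14, DESeq p-value), and whether the construct or the cell's own gene gave these reads cannot be told apart.

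In the cell cycle lists, mRNA values stood near 0. RNA-seq called 0 of 18 mitosis genes higher and 1 lower, and 6 of 21 replication genes higher and 1 lower, with median log2 values of -0.001 and 0.05. Of 30 p53-activated genes, 3 were called higher and 9 lower in RNA-seq, with a median of -0.02. Of 16 AHR-induced genes, 9 were called higher and 0 lower, with a median of 0.51, and of 27 cytokine genes, 13 were called higher and 1 lower, with a median of 0.23. ER chaperones had 11 of 15 called higher and 0 lower, and cholesterol genes had 1 of 23 called higher and 11 lower. ATF4 stress genes had 2 of 18 called higher and 5 lower, with a median of -0.06. PSAT1 mRNA was called lower, at a fold change of 0.856 in the authors' deposited table, and DDIT3 mRNA was uncalled. EMT transcription factors had 3 of 17 called higher and 6 lower, and epithelial junction genes had 2 of 32 higher and 12 lower. Mesenchymal and matrix markers had 9 of 38 called higher and 12 lower. Actin and SRF targets had 9 of 17 called higher and 2 lower, with a median of 0.10, against -0.36 in GRO-seq. Shares over all RNA-seq rows were 10.5% higher and 10.9% lower.

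**Figure D5:**
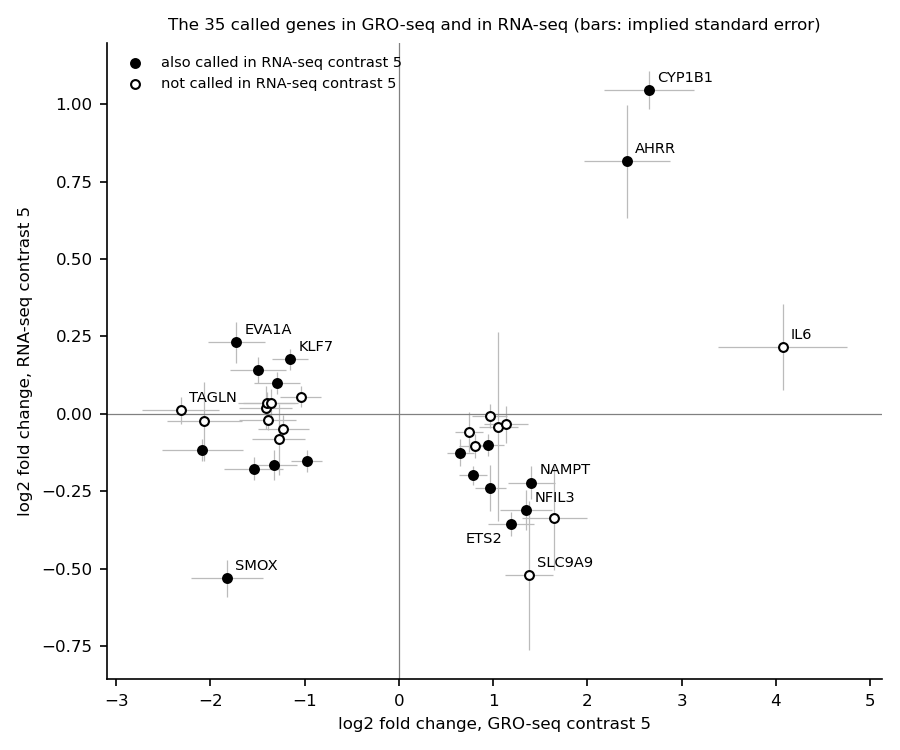
Log2 fold changes of the 35 called genes in GRO-seq contrast 5 (horizontal) and RNA-seq contrast 5 (vertical), with implied standard errors as bars and filled points for genes also called in RNA-seq. CYP1B1 and AHRR are high in both, IL6 is near 4 in GRO-seq with an uncalled mRNA value, and most other mRNA values lie close to 0.

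Gene structure was read from RefSeq on GRCh38.p14, where all 35 genes matched. Their median length was 68.2 kb (37.6 kb for those that rose and 76.7 kb for those that fell), against 35.9 kb over 14182 matched genes. Another annotated gene overlapped 27 of the 35 (77.1%), against 60.3% of all matched genes, so reads of a neighbour or antisense transcript cannot be told apart for most of them. The median log2 fold change in contrast 5 was 0.05 in the shortest 1419 genes (median 3.7 kb) and -0.04 in the longest 1419 genes (median 308 kb), against 0.17 and -0.23 in contrast 2. Medians per chromosome in contrast 5 ran from -0.14 on chromosome 22 to 0.14 on chromosome 13.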

How the data were processed

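GRO-seq and RNA-seq were made from MCF10A-1 cells in 6 groups of 4 libraries per assay. Per the file headers, the authors deposited for each assay 5 numbered contrasts with a linear ratio (fold change) and a p-value without adjustment for each gene symbol. The submitters' processing notes name BWA 0.7.16a, featureCounts and limma for GRO-seq, STAR and DESeq for RNA-seq, and GRCh38. Annotation, filters and strand setting: not given in the sources used here. Per the labels' titles, which were followed, the short exposure is 3 hours, and their treatment protocol has 72 hours. No values of single libraries were used, so no SD, depth or interval is given.

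Benjamini-Hochberg adjustment ran over all rows with a symbol (14745 in GRO-seq, 15535 in RNA-seq, where 156 rows or 0.994% without one were left out) and genes under 0.05 after adjustment were called. The implied standard error divides the log2 fold change's size by the Student quantile that the deposited p-value stands for, with 25 (GRO-seq) and 30 (RNA-seq) degrees of freedom, which made the errors of a gene most alike across contrasts. Differences of contrasts used both standard errors, taken as independent, which for contrasts 5 and 4 with a common group calls too few genes. Named are all called genes, 15 set genes, up to 4 members with the smallest p of each list with at least 3 at an unadjusted p under 0.05, the 5 largest and 5 smallest differences from contrast 3, the 6 genes next to the threshold, and, chosen after their values were seen, the genes that differ from contrast 4. Of the genes so chosen, 2 are not reported here. The members and gene lists were chosen with earlier results of these data known. Coordinates and promoters came from RefSeq (GRCh38.p14), matched by symbol for 96.2% of genes, and 29 of the 35 called genes had a promoter sequence. Steps were tested on simulated data. Alternatives were other thresholds, fold minimums and adjustments, the more precisely measured genes, normal quantiles and a common-group standard error. The software was scipy 1.17.1, pandas 2.3.3, numpy 2.4.6 and matplotlib 3.10.9 on Python 3.11.15.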

Additional observations from a re-analysis of the deposited data

Results flagged for a closer look

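In GRO-seq, 75 genes had fold changes that differed between contrasts 5 (3 days, SATB1 cells) and 3 (3 days, vector cells) by a test of the difference at an adjusted p under 0.05. Those named had contrast 5 minus contrast 3 values on the log2 scale of -6.24 (GBP6), -6.08 (EGR3), -4.19 (FBXO32), -4.05 (PPARGC1A), -3.42 (CLEC2B), -2.35 (AKR1C1), -2.30 (EGR1), -2.22 (ALDH3A1), 1.59 (HMGA2), 2.36 (DSCAM), 2.96 (CDH4), 3.02 (SLCO2A1), 3.15 (SLCO4A1) and 3.23 (THBS1).

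The same test between contrasts 5 and 4 (3 hours, SATB1 cells) was passed by 12 genes. Among those named, contrast 5 minus contrast 4 was -2.23 (KIFC1), -2.01 (BUB1B), -1.82 (CIT), -1.61 (IQGAP3), -1.15 (GAREM1), 1.09 (HIVEP1), 1.22 (LYN), 2.17 (TNFAIP3), 2.30 (XDH), 4.22 (BHLHE41) and 5.04 (IL24) on the log2 scale. No value per library was used here, so no single library could be looked at for any of these genes.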

How the results depend on the processing

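The count of 35 called genes rests on the threshold and the adjustment. It was 0 at an adjusted p under 0.01 and 0 with the Benjamini-Yekutieli adjustment, 93 at an adjusted p under 0.1, and 269 with p-values adjusted over the 5 contrasts together; it stayed at 35 with a minimum of 1.5-fold, 27 with 2-fold, and was 36 among the more precisely measured genes, 27 of them shared. The 75 differences from contrast 3 were 22 at 0.01, 190 at 0.1 and 80 both among precise genes and with normal quantiles. The 12 differences from contrast 4 were 334 with the common-group standard error. Calls shared with RNA-seq were 20 at an unadjusted p there. Among precisely measured members (background 8.65% above 1 and 4.15% below 1), 1 of 7 replication, 7 of 10 mitosis and 6 of 13 actin genes lay below 1 at an unadjusted p under 0.05, and 13 of 22 p53, 4 of 13 immediate early and 3 of 6 cytokine genes above 1; with a minimum of 1.5-fold the actin count was 2. The alternatives leave the deposited fold changes of the 125 named genes as they are, so only calls could move: 35 lost their call at 0.01 and with Benjamini-Yekutieli and 8 at 2-fold, while 32 gained one with the 5 contrasts together, 12 at 0.1 and 6 among precise genes. No paired analysis was possible because the deposited columns hold comparisons and no libraries, and for the same reason leaving out each replicate was not run. The depth is unknown, so what it limits cannot be given.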
